A study of Homo sapiens with 12 samples.

Results

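Fibroblast growth factors (FGFs) and their receptors were examined in MRC5 cells, a line of human embryonic lung fibroblasts, as they became senescent and were treated with either of 2 inhibitors of mitochondrial carriers. The genes were 10 of the 57500 in the count table, picked by symbol: the ligands FGF1, FGF2, FGF5, FGF7, FGF9, FGF10 and FGF18, and the receptors FGFR1, FGFR2 and FGFR4. RNA was sequenced in 4 groups of 3 libraries: Prol, which were proliferating and unirradiated, Sen(IR), in which X-rays at 20 Gy had induced senescence, and Sen(IR)+UK5099 and Sen(IR)+CTPI2, irradiated alike and then given an inhibitor. UK5099 inhibits the mitochondrial pyruvate carrier and was used at 100 μM, whereas CTPI2 inhibits the mitochondrial citrate carrier SLC25A1 and is listed in the methods at 15 or 30 μM, without the dose of these libraries. Both were added 1 day after irradiation, irradiated cells were collected on day 10 to 12, and no vehicle is named for Prol or Sen(IR). All groups came from a single cell line, and the labels do not say whether replicates were separate cultures. The study calls its sequencing replicates independent experiments or conditions without more detail, so that p-values measure the spread between these libraries, part of which may be technical.

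FGF ligands bind receptor tyrosine kinases on the cell surface together with heparan sulfate chains, and the active receptor signals through adaptors, RAS and the ERK kinases to transcription factors such as ETV4 and EGR1. Sprouty proteins and dual-specificity phosphatases are induced by this signal and dampen it. In the lung, mesenchymal cells secrete FGF7 and FGF10, which act on the FGFR2b form made by epithelial cells, whereas FGFR1 is the main receptor of fibroblasts and binds FGF1 and FGF2.

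Libraries held between 20597736 counts (Sen(IR)) and 28245693 counts (Prol). Replicates differed by 2.24 to 12.5 times sampling noise (chi-square per gene), with the largest values for Prol replicate 2 against the other Prol libraries (10.4 and 12.5), and in Sen(IR)+CTPI2 replicate 3 lay farther from its group (7.39 and 8.29) than the other pair did (2.76). All 10 fibroblast markers examined were above 1 CPM (counts scaled to library size by the TMM method) in every group. CDH1, PECAM1, CDH5 and PTPRC, which define epithelial, endothelial and blood cells, were at 0 to 8 counts in every library, but other genes of the same marker lists were expressed, such as TEK at 154 to 365 CPM and, in Prol, KRT18 at 47.3 to 61.9 CPM. In bulk RNA, fewer cells of a type and less RNA per cell cannot be told apart.

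The promoters of FGF7 and FGF2 are shown because these ligands had the highest levels in Sen(IR), rising there and falling with UK5099, and those of FGF1 and FGF5 because both ligands fell in Sen(IR). Each is the 250 bases before the gene's outermost annotated start on GRCh38, read 5′ to 3′ on the gene's strand, and capitals mark motif matches on either strand: TGANTCA (AP-1), GGGCGG (GC box), CCAAT and TATAAA. FGF7 (chr15:49422987-49423236, plus strand) holds CCAAT beginning 45 bases before the start. FGF2 (chr4:122826432-122826681, plus strand) holds 1 AP-1 match and 4 GC boxes, and FGF5 (chr4:80266389-80266638, plus strand) holds 1 GC box and a TATAAA that ends at the start. FGF1 (chr5:142698071-142698320, minus strand) holds CCAAT on its opposite strand.
FGF7: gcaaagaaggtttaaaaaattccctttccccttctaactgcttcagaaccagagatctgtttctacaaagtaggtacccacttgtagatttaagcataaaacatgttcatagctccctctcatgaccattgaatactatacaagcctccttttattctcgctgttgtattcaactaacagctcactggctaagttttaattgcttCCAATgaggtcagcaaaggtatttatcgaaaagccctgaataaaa
FGF2: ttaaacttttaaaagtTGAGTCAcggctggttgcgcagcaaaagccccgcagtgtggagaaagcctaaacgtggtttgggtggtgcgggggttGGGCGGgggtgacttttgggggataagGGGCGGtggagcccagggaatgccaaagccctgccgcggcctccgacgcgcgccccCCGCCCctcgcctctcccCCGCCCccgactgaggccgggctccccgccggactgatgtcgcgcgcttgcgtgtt
FGF5: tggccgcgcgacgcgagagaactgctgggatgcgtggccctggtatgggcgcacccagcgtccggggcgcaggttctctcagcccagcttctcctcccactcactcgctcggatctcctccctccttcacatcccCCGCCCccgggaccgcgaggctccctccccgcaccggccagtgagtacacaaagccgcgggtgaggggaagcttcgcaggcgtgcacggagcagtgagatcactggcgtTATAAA
FGF1: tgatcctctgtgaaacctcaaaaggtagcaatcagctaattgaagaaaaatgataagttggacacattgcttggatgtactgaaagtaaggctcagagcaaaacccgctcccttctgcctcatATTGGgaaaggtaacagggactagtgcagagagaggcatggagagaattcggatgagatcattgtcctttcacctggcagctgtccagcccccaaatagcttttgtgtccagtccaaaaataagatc

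These windows differed in base composition. FGF7 had 37.6% G or C and 2 CpG dinucleotides, and FGF1 had 44.8% and 2, whereas FGF2 had 66.4% and FGF5 had 67.2%, each with 24 CpGs. The medians over the 19615 protein-coding genes were 59.6% and 14 CpGs. AP-1 matches occurred in 5.45% of those windows, GC boxes in 49.2%, CCAAT in 33.4% and TATAAA in 9.97%. The matches of the 4 windows did not overlap one another. TTTNGCGC, an E2F motif found in 1.72%, was in the window of FGFR1 and in none of the other members' windows.

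FGF7, FGF2 and FGF5 held most of the ligand mRNA in every group. Per exon length (RPKM, CPM divided by the kilobases of exon), FGF7 averaged 104 ± 2.46 in Sen(IR) (SD, n = 3, as for all means here), ahead of FGF2 at 43.8 ± 3 and FGF5 at 18.4 ± 0.441. FGF9 was at 3.02 ± 0.269, FGF1 at 0.324 ± 0.0781, FGF18 at 0.188 ± 0.0881 and FGF10 at 0.119 ± 0.0437, and FGF1 was above FGF18 in every Sen(IR) library, whereas FGF18 and FGF10 changed order between libraries. In Prol the leading ligands were closer together, with FGF5 at 31.1 ± 9.42, FGF7 at 28.6 ± 3.7 and FGF2 at 22.2 ± 1.49, and the ranges of FGF5 and FGF7 overlapped. Among receptors, FGFR1 was far ahead in Sen(IR) at 25.3 ± 0.611 RPKM against 0.697 ± 0.0844 for FGFR4 and 0.00341 ± 0.00296 for FGFR2.

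**Figure D1:**
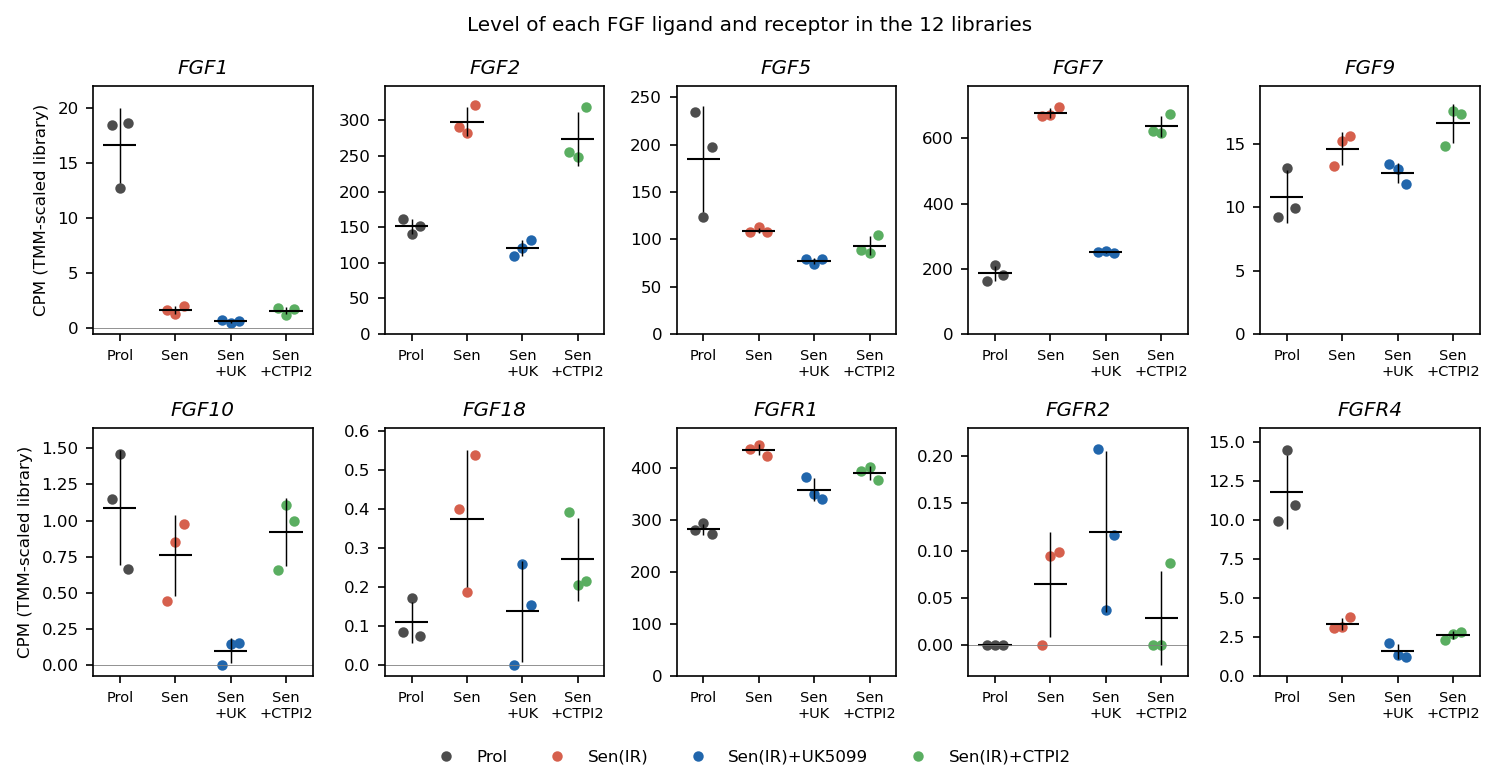
CPM (TMM-scaled) of each of the 10 genes in the 12 libraries, by group, on linear axes that differ between panels; points are libraries, horizontal bars group means and vertical lines SDs (n = 3). FGF7 and FGF2 are high in Sen(IR) and Sen(IR)+CTPI2 and low in Prol and Sen(IR)+UK5099, and FGF1 and FGFR4 are highest in Prol.

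Sen(IR) was compared with Prol to ask how senescence changes these genes. FGF7, FGF2 and FGFR1 rose, and FGF1, FGFR4 and FGF5 fell. The largest change was the fall of FGF1, which was 10.3-fold lower, and the largest rise was that of FGF7, 3.65-fold. A gene was called where edgeR's quasi-likelihood test gave a Benjamini-Hochberg adjusted p under 0.05 over the 16251 genes tested and the log2 fold change exceeded 0.5 in size. By this rule 3 members were called higher and 3 lower of the 8 that passed the filter on low counts, beside 47.2% of all genes tested (24.8% higher, 22.4% lower). For 7 of the 8, the libraries of one group all lay to one side of the other's, beside 70.9% of all genes. The members' median log2 fold change was -0.04, and that of all genes 0.01. Cell type markers moved as well: endothelial markers summed to 157 to 206 CPM in Prol and 355 to 367 CPM in Sen(IR), nearly all of it TEK, immune markers to 0.944 to 1.36 and 5.19 to 5.56 CPM, with CD14 at 0.192 ± 0.0564 and 3.32 ± 0.388 CPM, and epithelial markers to 59.2 to 71.7 and 24.1 to 26.8 CPM, mostly KRT18. The endothelial rise was that of TEK, whereas KDR of the same list was called lower (log2 fold change -2.135, adjusted p = 6.19e-07, edgeR). Mean KDR was 0.948 CPM after irradiation, against 4.21 for proliferating cells. The part of these cell type markers in the changes of the FGF genes was not tested.

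FGF7, keratinocyte growth factor, is secreted by fibroblasts and acts on epithelial cells (ENSG00000140285, chr15:49423237-49488775, plus strand). Its levels were 164, 212 and 182 CPM in Prol and 668, 673 and 698 CPM in Sen(IR). Every Sen(IR) library was more than 3 times the highest Prol library, and the log2 fold change was 1.87 (SE 0.0674, adjusted p = 1.51e-16). Near-identical pseudogene copies could share its reads. The 6 copies examined had at most 21 counts in any library. Only unique reads were counted, so these counts cannot show how many reads were shared.

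FGF2, basic fibroblast growth factor, is a broad mitogen that leaves cells without a signal peptide (ENSG00000138685, chr4:122826682-122898236, plus strand). It measured 161, 141 and 151 CPM in Prol and 291, 282 and 321 CPM in Sen(IR). The groups did not overlap, with a log2 fold change of 0.98 (SE 0.0813, adjusted p = 3.64e-10). Of its exon bases, 11.82% lie under the opposite-strand gene NUDT6, which had 43 to 79 counts per library, and the strand setting of the counting is not given in the sources used here.

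FGF1, acidic fibroblast growth factor, binds all FGF receptors (ENSG00000113578, chr5:142592178-142698070, minus strand). It was at 18.5, 12.7 and 18.6 CPM in Prol and at 1.6, 1.23 and 2.01 CPM in Sen(IR). Even the lowest Prol library was above 6 times the highest Sen(IR) library, and the log2 fold change was -3.36 (SE 0.194, adjusted p = 6.38e-13).

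FGF5, known as an inhibitor of hair growth (ENSG00000138675, chr4:80266639-80336680, plus strand), was at 234, 124 and 198 CPM in Prol and 108, 113 and 108 CPM in Sen(IR). Prol replicate 2 lay just above Sen(IR), whereas the other Prol libraries were well above it. The log2 fold change was -0.76 (SE 0.132, adjusted p = 2.6e-05), and it ran from -0.98 without Prol replicate 2 to -0.56 without Prol replicate 1.

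FGF9, which is made by epithelium and mesothelium in the developing lung (ENSG00000102678, chr13:21671073-21704498, plus strand), was at 9.21, 13.1 and 9.92 CPM in Prol and 13.2, 15.2 and 15.6 CPM in Sen(IR). The groups touched without overlapping. The log2 fold change of 0.45 (SE 0.119, adjusted p = 0.00209) was under the fold limit. It passed that limit without Prol replicate 2 (0.61) and without Sen(IR) replicate 1 (0.52), and under upper-quartile scaling (0.57), which moved the median of all genes to 0.14.

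FGF10, the mesenchymal ligand that drives lung branching (ENSG00000070193, chr5:44300247-44389706, minus strand), was low throughout. Its libraries held 27, 34 and 18 counts in Prol and 10, 18 and 20 in Sen(IR), so that the groups overlapped, and the log2 fold change was -0.52 (SE 0.413, adjusted p = 0.272). FGF18, a ligand of bone and cartilage growth (ENSG00000156427, chr5:171419647-171457626, plus strand), held 2, 4 and 2 counts in Prol and 9, 4 and 11 in Sen(IR), did not pass the filter and was not tested.

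Receptors moved in opposite directions. FGFR1 (ENSG00000077782, chr8:38400215-38468834, minus strand) was at 282, 294 and 273 CPM in Prol and 438, 445 and 424 CPM in Sen(IR), with a log2 fold change of 0.63 (SE 0.0519, adjusted p = 3.66e-10). FGFR4, best known as the FGF19 receptor of liver (ENSG00000160867, chr5:177086905-177098144, plus strand), was at 9.93, 14.5 and 11 CPM in Prol and 3.11, 3.13 and 3.82 CPM in Sen(IR). It was thus lower in every Sen(IR) library, with a log2 fold change of -1.81 (SE 0.172, adjusted p = 3.44e-09). FGFR2, the receptor that reads FGF7 and FGF10 in epithelium (ENSG00000066468, chr10:121478332-121598458, minus strand), had no count in any Prol library, which allows up to 0.129 CPM at the shallowest (3 counts), and 0, 2 and 2 counts in Sen(IR). It was not tested.

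UK5099 was compared with Sen(IR) to ask what blocking the pyruvate carrier does in senescent cells. Every member ligand tested except FGF9 fell, and so did FGFR4. In all, 6 of the 8 members tested were called lower and 0 higher, beside 20.8% of all genes (12.1% lower, 8.76% higher). The members' median log2 fold change was -1.19, and that of all genes 0.01. The groups did not overlap for 7 of the 8, beside 56.6% of all genes. This comparison shares the Sen(IR) libraries with the one before it, so that values against Prol are given as well.

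FGF7 dropped to 251, 254 and 248 CPM with UK5099, from 668 or more in Sen(IR). That is a log2 fold change of -1.44 (SE 0.0663, adjusted p = 5.73e-14), and the UK5099 libraries remained above the highest Prol library at 212 CPM. Directly against Prol, FGF7 differed by 0.43 (SE 0.0661, adjusted p = 4.08e-06), under the fold limit, which it passed without Prol replicate 2 (0.54) and under upper-quartile scaling (0.57).

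FGF2 measured 110, 121 and 132 CPM with UK5099, below every Sen(IR) library and also below every Prol library. Its log2 difference was -1.30 from Sen(IR) (SE 0.0821, adjusted p = 1.49e-11) and -0.32 from Prol (SE 0.0819, adjusted p = 0.00153), the latter under the fold limit.

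FGF1 and FGF5 were both highest in Prol and lowest with UK5099. FGF1 was at 0.662, 0.408 and 0.658 CPM (11 to 17 counts), a log2 difference from Sen(IR) of -1.48 (SE 0.31, adjusted p = 0.000454). FGF5 was at 79.3, 73.6 and 78.9 CPM, below Sen(IR) in every library, with a log2 fold change of -0.50 (SE 0.135, adjusted p = 0.00413). That value sat at the fold limit: the call was lost without Sen(IR) replicate 2 (-0.48), without UK5099 replicate 2 (-0.47) and under upper-quartile scaling (-0.48).

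FGF10 held 0, 4 and 4 counts with UK5099 against 10, 18 and 20 in Sen(IR). The groups did not overlap, and the log2 fold change was -2.80 with a wide interval of -4.05 to -1.55 (95%, adjusted p = 0.000597). FGF9 was at 13.4, 13 and 11.8 CPM, which overlapped Sen(IR), with a log2 fold change of -0.20 (95% interval -0.44 to 0.04, adjusted p = 0.171). FGF18 held 0, 7 and 4 counts.

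Among receptors, FGFR4 measured 2.15, 1.37 and 1.24 CPM with UK5099, below every Sen(IR) library, and its log2 fold change was -1.08 (SE 0.218, adjusted p = 0.000309). FGFR1 was at 384, 351 and 341 CPM, between Prol and Sen(IR) and apart from both. It differed from Sen(IR) by -0.28 (SE 0.0516, adjusted p = 0.000112) and from Prol by 0.34 (SE 0.0518, adjusted p = 3.45e-06), each under the fold limit. FGFR2 held 5, 1 and 3 counts.

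Markers of fibroblasts and of other cell types also moved in this comparison. The summed level of the 10 fibroblast markers was 20700 to 21300 CPM in Sen(IR) and 10900 to 11400 CPM with UK5099, and 6 of the 10 were called lower, beside 12.1% of all genes. Collagens carried the sum, with COL1A1 at 4640 to 4820 and 1500 to 1720 CPM, whereas DCN (1360 ± 52.1 and 1360 ± 103 CPM), LUM (356 ± 14.2 and 370 ± 24.7 CPM) and PDGFRB (156 ± 3.01 and 162 ± 8.23 CPM) were not called and overlapped between the groups. The 5 endothelial markers summed to 355 to 367 CPM in Sen(IR) and 207 to 236 CPM with UK5099, nearly all of it TEK. The 6 epithelial markers summed to 24.1 to 26.8 and 16.1 to 17.4 CPM. Of these KRT18 fell, from 16.3 ± 1.49 to 7.53 ± 0.692 CPM, KRT8 was at 7.97 ± 0.596 and 8.08 ± 0.668 CPM and EPCAM at 0.738 ± 0.215 and 1.17 ± 0.101 CPM. The 6 immune markers summed to 5.19 to 5.56 and 4.1 to 4.22 CPM. CD14 was at 3.32 ± 0.388 and 2.56 ± 0.436 CPM and CD68 at 1.67 ± 0.369 and 1.29 ± 0.374 CPM, the 2 tested and neither called. ITGAM was at 0.168 ± 0.133 and 0.0129 ± 0.0224 CPM, while PTPRC went the other way, at 0.125 ± 0.0989 and 0.274 ± 0.0458 CPM. Mitochondrial genes held 2.78 to 3.21% of counts in Sen(IR) libraries and 3.81 to 4.23% in UK5099 libraries. Whether any of these bears on the changes of the FGF genes was not tested.

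CTPI2 was compared with Sen(IR) to ask the same of the citrate carrier. No member was called higher or lower, beside 0.166% of all genes (27 genes, with 0.0185% higher and 0.148% lower). DESeq2 called 0 members as well. FGFR1, 1 of the 8 tested, had an unadjusted p under 0.05 by edgeR, and the share of all genes at that limit is not given here. FGF5, FGFR1 and FGFR4 did not overlap between the groups, 3 of the 8 beside 15.1% of all genes. FGF7 was at 623, 616 and 675 CPM and overlapped Sen(IR), with a log2 fold change of -0.09 and a 95% interval of -0.22 to 0.04. For FGF2, at 256, 248 and 318 CPM, the interval was -0.29 to 0.04. FGF5 was at 89.2, 86 and 105 CPM, just below every Sen(IR) library, with an interval of -0.51 to 0.05.

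FGFR1 was at 396, 402 and 377 CPM with CTPI2, below every Sen(IR) library, and its log2 fold change of -0.16 had an interval of -0.26 to -0.05 (adjusted p = 0.351, edgeR). FGF9 was at 14.8, 17.6 and 17.3 CPM (interval -0.06 to 0.42) and FGFR4 at 2.32, 2.72 and 2.81 CPM (interval -0.78 to 0.07). FGF1 was at 1.8, 1.2 and 1.69 CPM (interval -0.59 to 0.49) and FGF10 at 15, 27 and 23 counts (interval -0.59 to 1.17). Both were low, and changes within these wide intervals are not excluded. FGF18 held 9, 5 and 5 counts and FGFR2 held 0, 0 and 2.

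**Figure D2:**
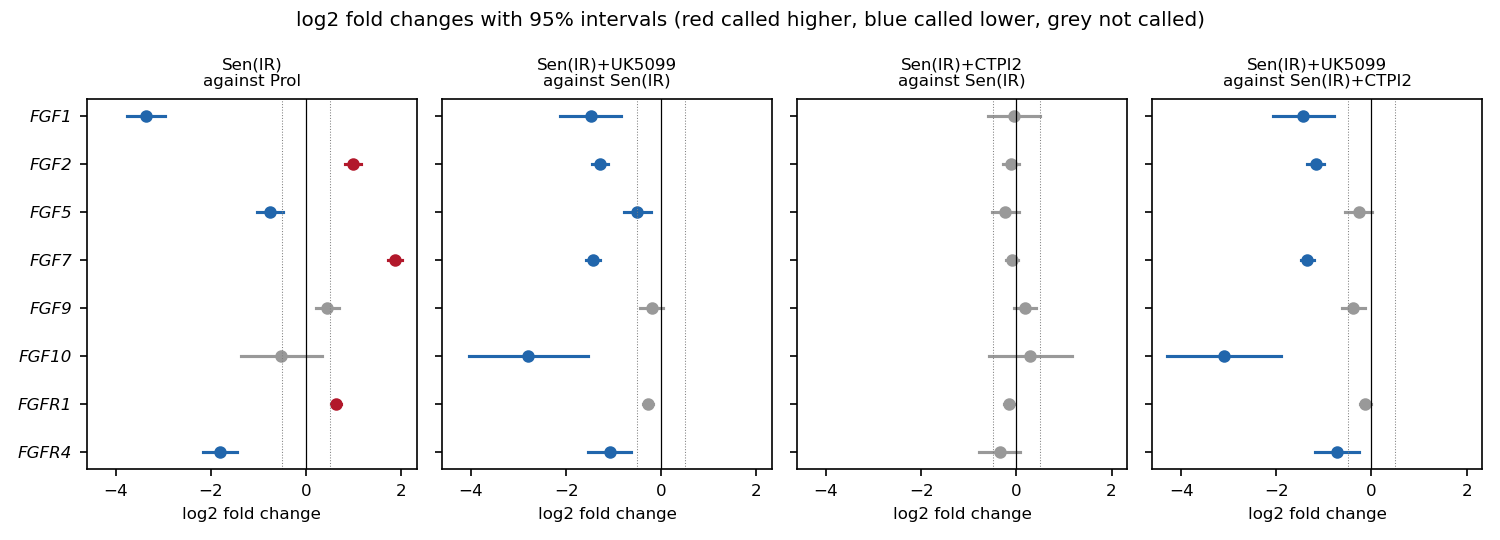
Log2 fold change (x axis) of the 8 members tested, with 95% intervals, in 4 comparisons; dotted lines mark the fold limit of 0.5 in each direction. UK5099 gives 6 members called lower against Sen(IR) and 5 against Sen(IR)+CTPI2, and CTPI2 gives 0 calls against Sen(IR).

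The inhibitors were then compared with each other, at doses that differ. FGF1, FGF2, FGF7, FGF10 and FGFR4 were lower with UK5099 than with CTPI2, which is 5 of the 8 tested with 0 higher, beside 19.9% of all genes (11.7% lower, 8.2% higher). Their libraries did not overlap for 7 of the 8, beside 53.6% of all genes. The median was -0.95 over the members and 0.01 over all genes. The log2 difference was -1.34 for FGF7 (95% interval -1.48 to -1.21, adjusted p = 2.15e-13) and -1.18 for FGF2 (SE 0.0819, adjusted p = 9.34e-11). FGF1 differed by -1.43 (adjusted p = 0.000614) and FGF10 by -3.09 (adjusted p = 0.000146). FGFR4 differed by -0.73 (adjusted p = 0.0108), a call that was lost without UK5099 replicate 3 (-0.58, adjusted p = 0.0638). FGF5 differed by -0.27 (interval -0.55 to 0.01), FGF9 by -0.38 (interval -0.62 to -0.14, adjusted p = 0.0097) and FGFR1 by -0.13 (interval -0.23 to -0.02).

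Each inhibitor group was also set against Prol. With UK5099, 4 of the 8 members tested were called lower and 0 higher, beside 53.1% of all genes (26.2% lower, 26.9% higher): FGF1 by -4.84, FGF10 by -3.32, FGFR4 by -2.90 and FGF5 by -1.26 on the log2 scale. With CTPI2, 3 were called higher and 3 lower, beside 46.8% (24.8% higher, 21.9% lower): FGF7 by 1.78, FGF2 by 0.86 and FGF9 by 0.63, and FGF1 by -3.41, FGFR4 by -2.17 and FGF5 by -0.99. FGFR1 was 0.47 above Prol with CTPI2, under the fold limit, and 0.58 under upper-quartile scaling. Libraries did not overlap for 7 of the 8 in either comparison, beside 74.6% of all genes with UK5099 and 70.1% with CTPI2. Both share the Prol libraries with the comparison of Sen(IR) against Prol.

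Summed over the 7 ligands, mRNA per exon length was 87.7 ± 7.34 RPKM in Prol, 170 ± 5.49 in Sen(IR), 72.2 ± 1.3 with UK5099 and 158 ± 12.3 with CTPI2. All Sen(IR) libraries (167, 167 and 176) were above all Prol libraries (94, 79.6 and 89.4), and all UK5099 libraries (70.9, 72.1 and 73.5) were below both. CTPI2 libraries (152, 150 and 172) overlapped Sen(IR).

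The make-up of this sum differed as well. FGF7 made up 33% ± 7.17 of it in Prol, 61.3% ± 0.558 in Sen(IR), 53.4% ± 1.35 with UK5099 and 62.1% ± 1.63 with CTPI2. FGF5 went the other way, at 35% ± 8.06, 10.8% ± 0.509, 18% ± 0.825 and 9.9% ± 0.285 in the same order. The share of FGF2 lay between 22.9 and 27.1% in all 12 libraries, and that of FGF1 was 3.19 to 4.17% in Prol and at most 0.237% in any irradiated library. FGF9 held 2.57% ± 0.732 in Prol, 1.77% ± 0.13 in Sen(IR), 3.64% ± 0.292 with UK5099 and 2.17% ± 0.225 with CTPI2. Its mean share was highest with UK5099, although the libraries of UK5099 (3.32 to 3.9%) and Prol (2.02 to 3.4%) overlapped. The ratio of FGF7 to FGF2 ranged over the libraries from 1.06 to 1.57 in Prol and from 2.27 to 2.49 in Sen(IR), while UK5099 gave 1.96 to 2.37 and CTPI2 gave 2.22 to 2.59.

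**Figure D3:**
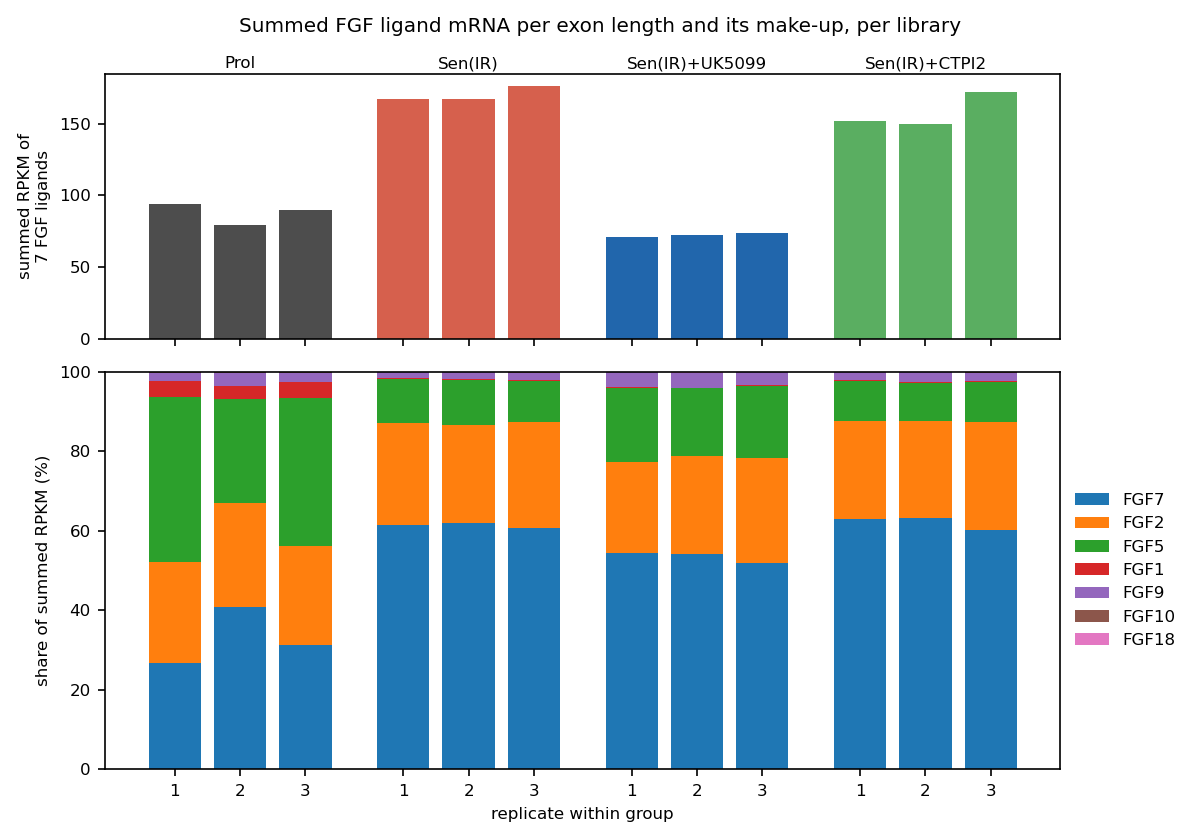
Upper panel, summed RPKM of the 7 FGF ligands in each library; lower panel, the share of each ligand in that sum (%). Bars are single libraries, grouped by treatment with replicates 1 to 3. The sum is 167 to 176 in Sen(IR) and 70.9 to 73.5 with UK5099, and FGF7 takes the larger part of it in every irradiated library.

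The rest of the pathway was followed in 89 further genes, of which 71 passed the filter. In Sen(IR) against Prol, 23 were called higher and 15 lower, 53.5% beside the 47.2% of all genes. With UK5099 against Sen(IR), 6 were called higher and 16 lower, 31% beside 20.8%. CTPI2 against Sen(IR) gave 0 calls beside 0.166%. At an unadjusted p under 0.05 by edgeR there were 8 genes, and the share of all genes at that limit is not given here. Median log2 fold changes in these comparisons were 0.13, -0.20 and -0.02.

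Other FGF ligands were scarce. Of the 11 further secreted ligands 2 were tested, FGF17 and FGF20, and neither exceeded 18 counts in any library. FGF20 was called higher in Sen(IR) against Prol (2.12, adjusted p = 0.000553, edgeR), and FGF17 was not called (1.81, adjusted p = 0.108). With UK5099 against Sen(IR), neither was called (-0.93 for FGF20 and 1.46 for FGF17). Of the 4 FGF homologous factors, which stay inside the cell, 2 were tested, FGF13 and FGF14. Both were called higher in Sen(IR), beside 24.8% of all genes, and lower with UK5099, beside 12.1%. FGF14 was at 1.39 ± 0.26 CPM in Prol, 2.51 ± 0.587 in Sen(IR), 0.89 ± 0.171 with UK5099 and 2.89 ± 0.246 with CTPI2. Of its exon bases, 32.84% overlap other genes, among them ITGBL1 on the opposite strand, and the strand setting of the counting is not given. FGF13 was at 1.78 ± 0.35 CPM in Prol, 3.05 ± 0.408 in Sen(IR), 2.16 ± 0.316 with UK5099 and 2.27 ± 0.293 with CTPI2. Its UK5099 call sat at both limits (-0.50, adjusted p = 0.0465), and the CTPI2 value was -0.42 (adjusted p = 0.679). FGFRL1, a receptor without a kinase domain, rose with UK5099 from 50.3 ± 1.04 to 79.1 ± 2.57 CPM (log2 fold change 0.65, SE 0.0587, adjusted p = 5.34e-09). FGFR3 was low and was called lower in Sen(IR), from 2.03 ± 0.312 CPM in Prol to 0.87 ± 0.346 CPM (-1.23, adjusted p = 0.00264).

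Heparan sulfate, the co-receptor of FGFs, is carried by syndecans and glypicans and trimmed by the sulfatases SULF1 and SULF2. Of 11 tested enzymes that build or trim it, 7 were called higher and 1 lower in Sen(IR), beside 24.8% and 22.4% of all genes, with a median log2 fold change of 0.75. SULF2 went from 2.68, 3.05 and 2.49 CPM in Prol to 51.4, 51 and 51.9 CPM in Sen(IR), a log2 fold change of 4.23 (SE 0.0964, adjusted p = 6.8e-20). SULF1 went from 5.58, 5.53 and 5.5 CPM to 30.4, 34.7 and 34.6 CPM (2.58, SE 0.0914, adjusted p = 1.06e-16). EXT1, which polymerises the chain, rose by 1.32.

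UK5099 separated the sulfatases: SULF1 fell to 2.61, 2.82 and 2.56 CPM, below Prol (-3.64 against Sen(IR), SE 0.102, adjusted p = 6.43e-18), while SULF2 was at 55.9, 50.8 and 55.1 CPM and overlapped Sen(IR) (0.07, SE 0.0676, adjusted p = 0.432). EXT1 (-0.71) and the sulfotransferase HS3ST1 (-1.67) also fell, so that 3 of 11 were called lower and 0 higher, beside 12.1% and 8.76% of all genes. Among 11 tested proteoglycans, 5 were called higher and 2 lower in Sen(IR), beside 24.8% and 22.4% of all genes. Those with a mean log2 CPM above 1 and the largest changes were GPC4 (1.56), SDC1 (-1.08) and SDC3 (0.80), and the other gene called lower was GPC2 (-1.17), whose mean is under that level. With UK5099 GPC1 rose (0.64) while GPC4 (-0.54) and SDC1 (-0.51) fell, so that 1 was called higher and 2 lower, beside 8.76% and 12.1%. FLRT2 and FLRT3, membrane proteins that bind FGFR1, rose in Sen(IR) by 0.67 and 1.22 and fell with UK5099 by 0.88 and 1.34, while CDH2, N-cadherin, was lower in Sen(IR) at -0.88.

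Between receptor and nucleus, of 10 receptor adaptors SHC1 rose (0.61) and CBL fell (-0.58) in Sen(IR), and of 9 genes of the RAS to ERK chain MAPK3 (ERK1) rose (1.17) and NRAS fell (-1.53), which is 20% and 22.2% called beside 47.2% of all genes. With UK5099, the adaptors GAB1 (1.09) and SOS1 (0.54) and the kinase BRAF (0.68) rose and 0 genes of either group were called lower. That is 20% of the adaptors and 11.1% of the chain called, beside 20.8% of all genes (8.76% higher, 12.1% lower). However, HRAS (-0.40, adjusted p = 0.00333, edgeR), MAP2K1, MAP2K2 and NRAS were lower in every UK5099 library. Each of these 4 was under the fold limit with an adjusted p under 0.05.

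Feedback inhibitors, which the pathway itself induces, changed in each direction too. Of 10 feedback inhibitors, 2 were called higher and 4 lower in Sen(IR), which is 60% beside 47.2% of all genes, and 1 higher and 4 lower with UK5099, which is 50% beside 20.8%. SPRY1 was at 22.4 ± 4.02 CPM in Prol, 7.62 ± 0.499 in Sen(IR) and 3.73 ± 0.201 with UK5099. SPRY4 was at 66.8 ± 7.33, 49.8 ± 2.1 and 21.7 ± 2.22 CPM, and only its second step passed the fold limit (-0.42 and -1.20). SPRY2 fell in Sen(IR) by 0.68. DUSP6, a phosphatase of ERK, went against these, rising by 0.70 in Sen(IR), and IL17RD rose by 1.33 with UK5099.

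Of 8 transcription factors and targets, 1 was called higher and 4 lower in Sen(IR), which is 62.5% beside 47.2% of all genes, and 3 lower with UK5099, which is 37.5% beside 20.8%. ETV4 was at 21.8, 20.3 and 20.8 CPM in Prol, 3.82, 3.32 and 3.53 CPM in Sen(IR) and 1.36, 1.44 and 1.86 CPM with UK5099, a separate level in each group (-2.56 with adjusted p = 1.38e-14, then -1.19 with adjusted p = 2.58e-06). EGR1 fell by 1.90 and 0.91 and FOSL1 by 1.81 and 1.00 in the same comparisons. CCND1, cyclin D1, named after its values were seen, was the member called higher in Sen(IR), from 1040 ± 147 to 3310 ± 87.3 CPM. Under the fold limit but with an adjusted p under 0.05, ETV5 (0.485) and PHLDA1 (0.13) were higher in Sen(IR) and ETV1 (-0.441) was lower.

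**Figure D4:**
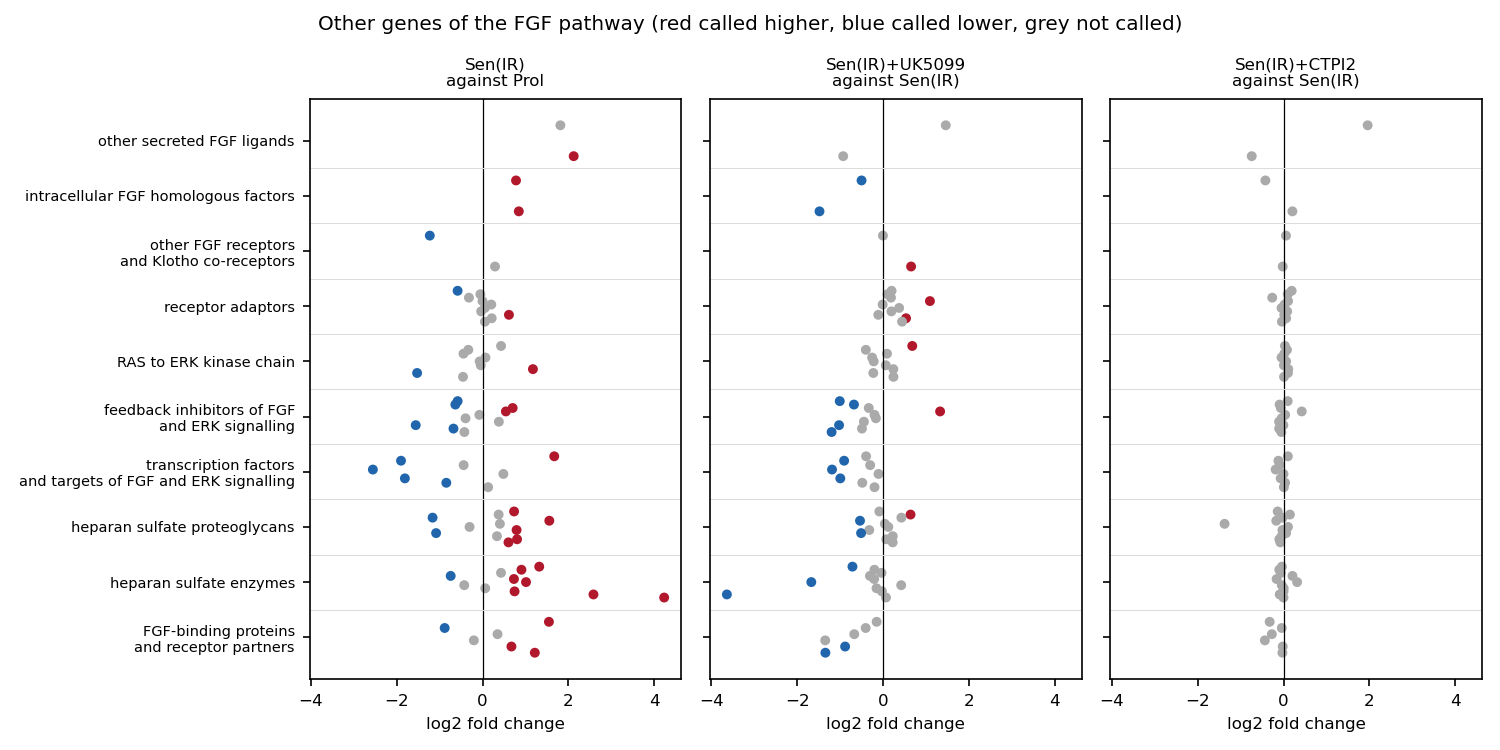
Log2 fold change (x axis) of the 71 tested pathway genes by role, 1 point per gene, in 3 comparisons; red points are called higher, blue lower and grey not called. The point farthest right in Sen(IR) against Prol is SULF2 (4.23), the point farthest left with UK5099 is SULF1 (-3.64), and no point is coloured with CTPI2.

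Genes whose log2 CPM followed a member most closely over the 12 libraries were looked for among 12141 genes. These correlations rest on 4 clusters of 3 libraries and are given as a description. FGF7 was most like ATP8B4 (Pearson's r = 0.998, Spearman's rho = 0.923), DPP4 (0.997, 0.951) and VCAM1 (0.996, 0.951), and VCAM1 averaged 21.8, 844, 38.7 and 622 CPM in Prol, Sen(IR), UK5099 and CTPI2. FGF2 was most like NAB1 (0.995, 0.986), GBP3 (0.987, 0.958) and IRAK3 (0.986, 0.965). For FGF1 the nearest were CENPH (0.995, 0.923), NBN and RBM12, and for FGFR4 EMILIN1 (0.986, 0.965), COL4A2 and XPOT. Genes like FGFR1 included TBC1D10A (0.983, 0.937) and B4GALT1 (0.982, 0.951). The nearest genes had lower r for FGF5 (FOXD1 at 0.965 and 0.93, then RELT and UAP1) and FGF9 (TNRC6B at 0.943 and 0.979, then RNF41 and LIMCH1). FGF10, FGF18 and FGFR2 were too low to be matched.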

How the data were processed

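RNA was sequenced from MRC5 fibroblasts in 12 libraries (paired ends of 150 bases). Per the authors' methods and processing notes, reads were trimmed (Trimmomatic 0.36), mapped with STAR 2.5.2b to the GRCh38 genome, and those falling uniquely on exons were counted by gene (featureCounts, Subread 1.5.2). The deposited table holds these raw counts per gene, without normalization. The annotation release and strand setting are not given in the sources used here.

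Counts were analysed with edgeR 4.0.16 in R 4.3.3 (filterByExpr, TMM, quasi-likelihood F test), fitting the 12 libraries together with group as the single factor. Benjamini-Hochberg adjustment covered the 16251 genes tested, which held 99.9% of counts. SE is the absolute log2 fold change divided by the square root of F. Positions and exon lengths came from GENCODE v44, in which all 10 members were found. The members, pathway lists and markers were chosen with earlier results of these data known. Besides the members, up to 3 called genes of each pathway list with the largest changes and a mean log2 CPM above 1 are named for Sen(IR) against Prol and UK5099 against Sen(IR), and the 3 genes most like each member (prior count 2), of which 1 is not reported here. The scripts were tested on simulated data. Alternatives were upper-quartile and RLE scaling, DESeq2 1.42.0, a fit without the filter, a fit of the compared groups alone, a replicate block, other limits and leaving out each library. Intervals and floors (3 counts) cover counting error or replicate spread only.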

Additional observations from a re-analysis of the deposited data

How the results depend on the processing

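Across 719 alternative values of the members' log2 fold changes, 694 kept their side of the threshold, 12 lost the call, 13 gained one and 0 calls reversed. Some values that were not called changed sign, such as FGF1 in CTPI2 against Sen(IR), which ran from -0.209 to 0.13 when single libraries were left out. Values of FGF5, FGF7, FGF9 and FGFR1 crossed the fold limit and FGFR4 lost a call on its adjusted p, as given beside each result, and other changes came from moving the limits themselves. With a limit of 1 on the log2 fold change, called members went from 6 to 3 in Sen(IR) against Prol and from 6 to 3 in Sen(IR)+CTPI2 against Prol, and other pathway genes from 38 to 18 in Sen(IR) against Prol and from 22 to 10 with UK5099 against Sen(IR). With no fold limit, members went from 4 to 7 in UK5099 against Prol, and pathway genes from 22 to 47 in UK5099 against Sen(IR). With an unadjusted p, 2 pathway genes were called in CTPI2 against Sen(IR) instead of 0. Shares of all genes under these changed limits are not given here, so that these counts cannot be set against a background. The counts for pathway genes were added after seeing the data. Leaving out each library gave 6 to 7 members in Sen(IR) against Prol, 5 to 6 in UK5099 against Sen(IR), 0 in CTPI2 against Sen(IR), 4 to 5 in UK5099 against CTPI2, 4 to 5 in UK5099 against Prol and 6 in CTPI2 against Prol. Same-numbered libraries did not deviate together (18 correlations, -0.0511 to 0.0423), and a replicate block gave 6, 6, 0, 5, 4 and 6 calls in that order and 37, 21 and 0 pathway genes, with 0 member calls changed. Depth limits FGF10, FGF18, FGFR2 and, in irradiated cells, FGF1.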
